A study of Mus musculus with 12 samples.

Results

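The genes described here are 8 genes of cellular senescence and of the p53 pathway, chosen by name: Cdkn2a, Cdkn2b, Cdkn1a, Trp53, Mdm2, Rb1, Lmnb1 and Igfbp3. They are 8 of the 43346 genes in the deposited table, and all 8 were among the 22553 genes that passed the filter on low counts. RNA came from a cross-section of mouse brain with hippocampus and cortex and was sequenced in 12 libraries, 4 in each of 3 groups. Old_CP2 mice (strain label C57BL/6;SJL-Tg, age 23 months) were given CP2, an inhibitor of mitochondrial complex I, at 25 mg per kg per day in drinking water with 0.1% polyethylene glycol (PEG) from 9 months of age. Old mice shared that age and strain label and received the PEG water alone from the same age. Young mice (strain label C57BL/6, age 3 months) were left untreated. All 3 groups have the genotype label wild type and titles that begin with NTG, whereas the design text also speaks of treated and untreated APP/PS1 mice, and this conflict could not be settled from the sources used here. Age, strain label and vehicle all differ between Old and Young, so they cannot be told apart in that comparison. The labels do not say that each library is a separate animal, so p-values measure the spread between libraries.

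Senescence is a lasting exit from the cell cycle. Cdkn2a encodes p16INK4a, which blocks the kinases that phosphorylate the retinoblastoma protein, and, from another first exon and reading frame, p19ARF, which holds back Mdm2, the ligase that sends p53 to degradation. Cdkn2b encodes p15INK4b, a close relative of p16INK4a, and Cdkn1a encodes p21, a kinase inhibitor and the best known target of p53. Rb1 encodes the retinoblastoma protein itself, which holds E2F factors inactive until it is phosphorylated. Lmnb1 encodes lamin B1 of the nuclear lamina, which is lost from many senescent cells, and Igfbp3 encodes a secreted binding protein for insulin-like growth factors (IGFs). In brain tissue most cells are neurons that have left the cell cycle, together with glia that can still divide.

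The 2 annotated transcripts of Cdkn2a bear on what a count per gene can show. Promoter windows of Cdkn2a and Cdkn1a are printed for the motifs they hold or lack, which do not bear on the count. On mm10, Cdkn2a (ENSMUSG00000044303, minus strand of chromosome 4, 89274471 to 89294653) has 2 annotated transcripts. One starts with a first exon of 207 bases at 89281986 to 89282192, the p16INK4a form, and the other with a first exon of 320 bases at 89294334 to 89294653, the p19ARF form. Their second exon, of 341 bases, is shared, and the deposited value is 1 count for the whole gene, so the 2 forms cannot be told apart. The bases just upstream of both starts, from RefSeq on GRCm38.p6 and written 5′ to 3′ on the gene's strand, follow. Those of the distal start lie at chr4:89294654-89294869 and those of the proximal start at chr4:89282193-89282442. Capitals mark the E2F motif TTTCCCGC and the GC box GGGCGG, both searched on either strand.

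Cdkn2a distal start: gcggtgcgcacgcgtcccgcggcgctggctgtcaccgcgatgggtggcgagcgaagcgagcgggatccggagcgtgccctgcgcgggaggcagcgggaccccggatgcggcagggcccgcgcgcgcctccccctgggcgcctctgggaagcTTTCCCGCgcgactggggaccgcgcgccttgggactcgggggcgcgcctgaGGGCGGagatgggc

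Cdkn2a proximal start: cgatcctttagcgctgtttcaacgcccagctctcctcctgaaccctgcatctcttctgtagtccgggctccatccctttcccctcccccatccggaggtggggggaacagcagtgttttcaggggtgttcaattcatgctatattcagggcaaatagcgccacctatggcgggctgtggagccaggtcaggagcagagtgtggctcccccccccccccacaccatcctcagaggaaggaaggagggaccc

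The distal stretch of 216 bases had a GC content of 78.7% and held 35 CpG sites, against 7 CpG sites in the proximal stretch of 250 bases. TTTCCCGC began 99 bases and GGGCGG 48 bases before the RefSeq distal start. Neither motif, nor TATAAA, occurred in the printed proximal stretch, although GGGCGG stood 23 bases after the proximal start, outside it. Of 32851 RefSeq promoter windows of 300 bases in the mouse genome, which run from 250 bases before to 50 bases after a start and so are longer than the printed stretches, 1.07% held TTTCCCGC, 35.7% held GGGCGG and 13.6% held TATAAA.

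Cdkn1a (ENSMUSG00000023067, chromosome 17, 29090979 to 29100722, plus strand) is shown because its upstream promoter holds a near-complete p53 response element. The window lies at chr17:29090729-29090975 on GRCm38.p6, and capitals mark the element, which begins 51 bases before the RefSeq start at 29090979.

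Cdkn1a upstream start: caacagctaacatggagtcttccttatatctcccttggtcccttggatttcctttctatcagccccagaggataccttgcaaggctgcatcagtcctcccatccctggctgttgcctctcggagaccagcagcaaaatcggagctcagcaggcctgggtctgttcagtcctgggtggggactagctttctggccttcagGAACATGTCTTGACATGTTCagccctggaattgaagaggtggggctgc

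The element, at chr17:29090928-29090947, had 1 mismatch to the p53 consensus. Cdkn1a also has a RefSeq start further downstream, at 29093769, and the best match in that window had 5 mismatches. At most 1 mismatch was found in 0.0883% of the 32851 windows, which is 29 windows. The best match in the Trp53 window had 3 mismatches, in the Mdm2 window 5 and in the Cdkn2a windows 6. These matches describe the letters of the windows only, and no binding was measured. The rest of each gene, introns included, was not searched, so elements there would not be seen. Windows were searched for 6 of the 8 genes. Rb1 and Lmnb1 are named only.

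Depth was 70548781 to 99449665 counts per library. Tissue markers set the groups apart before any of the 8 genes is considered. Summed CPM of 10 choroid plexus markers was 28.3 to 842 in Old_CP2, 32.4 to 982 in Old and 1238 to 1989 in Young. Summed CPM of 10 hindbrain and midbrain markers was 14.5 to 75.0 in Old_CP2, 21.5 to 96.6 in Old and 2.24 to 3.22 in Young, where Hoxb5 and Hoxb3 were at 0 in all 4 libraries. Markers of cortical and hippocampal excitatory neurons were abundant throughout, at 3456 to 4525 in Old_CP2, 2864 to 4267 in Old and 3970 to 4441 in Young. In Old against Young 0 of these 8 markers had a positive log2 fold change (median -0.27), and 0 were called. Microglial markers summed to 340 to 395 in Old_CP2, 349 to 369 in Old and 247 to 314 in Young. Astrocyte markers summed to 3690 to 4205 in Old_CP2, 4088 to 4873 in Old and 3434 to 3972 in Young, and inhibitory neuron markers to 912 to 1058 in Old_CP2, 992 to 1046 in Old and 866 to 960 in Young. Both sums were higher in every Old library than in any Young one. Of the 8 astrocyte markers, 8 had a positive log2 fold change in Old against Young. Of the 8 inhibitory neuron markers only 4 did, with a median of 0.02. The part of these shifts in the results below was not tested beyond a fit with the choroid plexus score as a covariate. In bulk tissue, fewer cells of a type and less RNA per cell cannot be told apart.

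Per unit of length, the 8 genes spanned a wide range of levels. Mdm2 was highest, at 6.16 ± 0.481 RPKM in Old_CP2, 5.60 ± 0.0936 RPKM in Old and 5.92 ± 0.242 RPKM in Young (SD, n = 4 each). Rb1 followed at 5.64 ± 0.387 RPKM in Old_CP2, 5.37 ± 0.394 RPKM in Old and 5.44 ± 0.564 RPKM in Young, and its range overlapped that of Mdm2 in each group. Igfbp3, Trp53, Cdkn1a and Lmnb1 lay between 2.27 and 3.69 RPKM on average. Among these 4 the ranges of neighbours in the order overlapped for Trp53 with Cdkn1a and Cdkn1a with Lmnb1 in Old_CP2. The same was true of Igfbp3 with Cdkn1a and Cdkn1a with Trp53 in Old, and of Cdkn1a with Igfbp3 and Trp53 with Lmnb1 in Young. Cdkn1a averaged 2.95 ± 0.643 RPKM in Old_CP2, under Igfbp3 and Trp53, 2.94 ± 0.602 RPKM in Old, under Igfbp3, and 3.69 ± 0.473 RPKM in Young, above both. The 2 INK4 genes were far below the rest in every group.

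Old was compared with Young to see how these genes differ between 23 and 3 months. Cdkn2a rose, and it was the only one of the 8 that passed the test. The share called among all tested genes was 6.7% in either direction, 3.96% higher and 2.74% lower. Cdkn2a had 16, 21, 22 and 11 reads in Old 7, 8, 9 and 10, against 0, 4, 0 and 6 reads in Young 1, 3, 4 and 5. This is 0.219 ± 0.0879 CPM in Old and 0.0278 ± 0.0334 CPM in Young (SD, n = 4 each). Every Old library lay above every Young library, a pattern that 6.94% of all tested genes showed. In Young 1 and Young 4 a count of 0 allows up to 0.0388 and 0.0383 CPM, for counting error only. The log2 fold change was 2.82 ± 0.675 (SE), with a 95% confidence interval of 1.37 to 4.28 (edgeR adjusted p = 0.0272). From the summed 70 reads in Old and 10 reads in Young, the ratio per depth was 7.05, with a 95% counting interval of 3.62 to 15.3. That counting interval leaves out the spread between libraries.

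Cdkn2a passed the filter on low counts through the old groups alone, with 4 of 4 Old_CP2, 4 of 4 Old and 0 of 4 Young libraries above the minimum of 0.112 CPM. A gene that enters in this way is bound to look higher in the old groups. The call ended when Young 1 (adjusted p = 0.0550), Young 4 (0.0612), Old 8 (0.0578) or Old 9 (0.0606) was left out. With the choroid plexus score as a covariate the log2 fold change was 2.44 (adjusted p = 0.126), and every Young library had a higher score than every old one.

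Cdkn2b, whose gene lies 11.6 kb from Cdkn2a on the same strand (ENSMUSG00000073802, chromosome 4, 89306289 to 89311032), did not pass the test. It had 41, 39, 31 and 41 reads in Old 7, 8, 9 and 10, against 61, 52, 45 and 22 reads in Young 1, 3, 4 and 5. The groups overlap, since Young held both the highest and the lowest library. Mean levels were 0.462 ± 0.0800 CPM in Old and 0.546 ± 0.225 CPM in Young (log2 fold change -0.24 ± 0.294, 95% interval -0.88 to 0.39, adjusted p = 0.710). Between the 2 neighbours, Cdkn2a averaged 0.150 ± 0.0563 RPKM in Old and 0.0194 ± 0.0234 RPKM in Young, while Cdkn2b averaged 0.268 ± 0.0416 RPKM in Old and 0.317 ± 0.127 RPKM in Young. Cdkn2a stayed below Cdkn2b in all 8 libraries of these groups. A further neighbour 1.1 kb from Cdkn2a, the long noncoding Gm12606, had 0 reads in both groups.

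**Figure D1:**
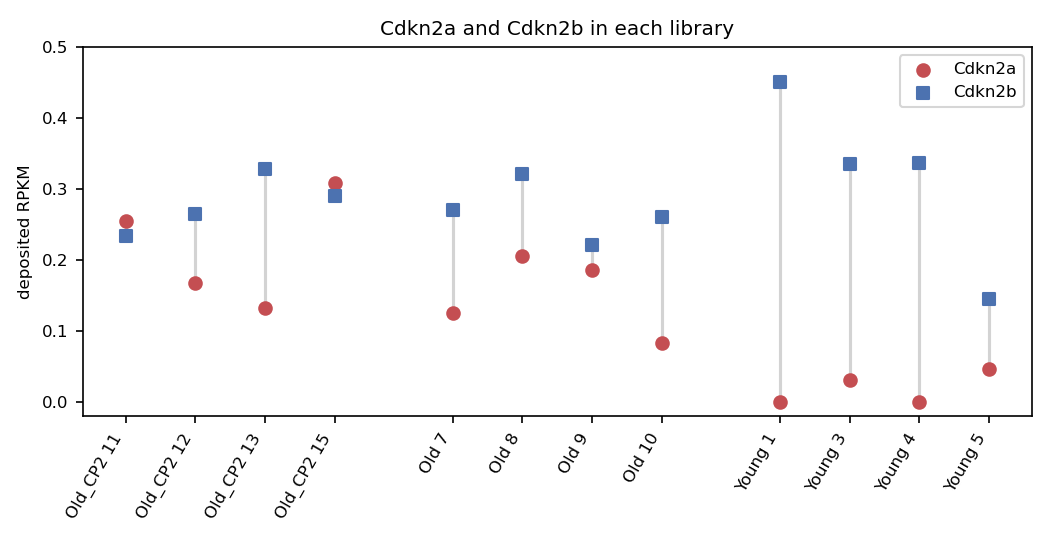
Deposited RPKM of Cdkn2a (circles) and Cdkn2b (squares) in each of the 12 libraries, grouped as Old_CP2, Old and Young, with a grey line joining the 2 genes of a library. Cdkn2a lies at 0 in Young 1 and Young 4 and exceeds Cdkn2b in Old_CP2 11 and Old_CP2 15 only.

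Cdkn1a, the p53-induced kinase inhibitor, was at 6.87, 9.00, 10.2 and 6.23 CPM in Old 7, 8, 9 and 10, against 10.1, 12, 9.48 and 8.87 CPM in Young 1, 3, 4 and 5. The ranges overlapped, with Old 8 and Old 9 inside the Young range. Its mean was 8.08 ± 1.85 CPM in Old and 10.1 ± 1.34 CPM in Young (log2 fold change -0.33 ± 0.178, 95% interval -0.71 to 0.06, adjusted p = 0.318). Trp53cor1, a long noncoding RNA 12 kb away on the other strand, was at 0.433 ± 0.146 CPM in Old and 0.541 ± 0.0984 CPM in Young. Gm16194, 13.4 kb away, had 12 reads in Old and 3 reads in Young.

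Trp53 (chromosome 11, 69580359 to 69591873) gave 13.9 ± 0.716 CPM in Old and 14.3 ± 0.225 CPM in Young, with a 95% interval of -0.17 to 0.09 for the log2 fold change (adjusted p = 0.763). Its 4 Old libraries spanned 13.2 to 14.7 CPM and its 4 Young libraries 14.0 to 14.5 CPM. Wrap53, which lies head to head with Trp53 with 104 bases between them, was at 9.52 ± 0.730 CPM in Old and 9.55 ± 0.946 CPM in Young. Mdm2 (chromosome 10, 117688888 to 117710758), both the ligase and a target of p53, averaged 35.0 ± 1.58 CPM in Old and 36.9 ± 1.24 CPM in Young (95% interval -0.21 to 0.05, adjusted p = 0.491). The groups overlapped in both genes. Atp1b2 lies 7.9 kb from Trp53 and Cpm 1.5 kb from Mdm2, and both are named only.

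Rb1 (chromosome 14, 73183673 to 73325822) had 39.8 ± 1.78 CPM in Old and 40.2 ± 3.65 CPM in Young, and the 95% interval of the log2 fold change was -0.17 to 0.14 (adjusted p = 0.931). The kit does not mark the strand, and Rcbtb2 and Lpar6 on the other strand share 8.11% and 6.78% of the exon bases of Rb1, so some reads there could belong to either gene. Gm17233 and Mir687 also lie within Rb1. Rcbtb2 was at 27.3 ± 1.02 CPM in Old and 24.1 ± 1.62 CPM in Young, and Lpar6 at 4.08 ± 0.560 CPM in Old and 4.13 ± 0.538 CPM in Young.

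Lmnb1 (chromosome 18, 56707813 to 56753424) was at 8.15, 8.60, 7.89 and 8.45 CPM in Old 7, 8, 9 and 10, against 9.07, 10.2, 8.93 and 9.16 CPM in Young 1, 3, 4 and 5. All 4 Old values lay below all 4 Young values, and 13.3% of tested genes showed such a separation in one direction or the other. The difference did not pass the test, with means of 8.27 ± 0.318 CPM in Old and 9.35 ± 0.603 CPM in Young (log2 fold change -0.18 ± 0.0833, 95% interval -0.36 to 0.00, unadjusted p = 0.0528, adjusted p = 0.240). Its neighbours March3 and Gm15345, 8.3 kb and 16.3 kb away, are named only. Igfbp3 (chromosome 11, 7206086 to 7213923) averaged 13.3 ± 0.796 CPM in Old and 12.7 ± 1.24 CPM in Young, with overlapping ranges of 12.7 to 14.5 CPM in Old and 11.6 to 14.1 CPM in Young (log2 fold change 0.07 ± 0.0745, adjusted p = 0.679). Its neighbour Igfbp1, 3.5 kb away, had 4 reads in Old and 10 reads in Young, and Gm11985, 19.8 kb away, had 16 reads in Old and 48 reads in Young.

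**Figure D2:**
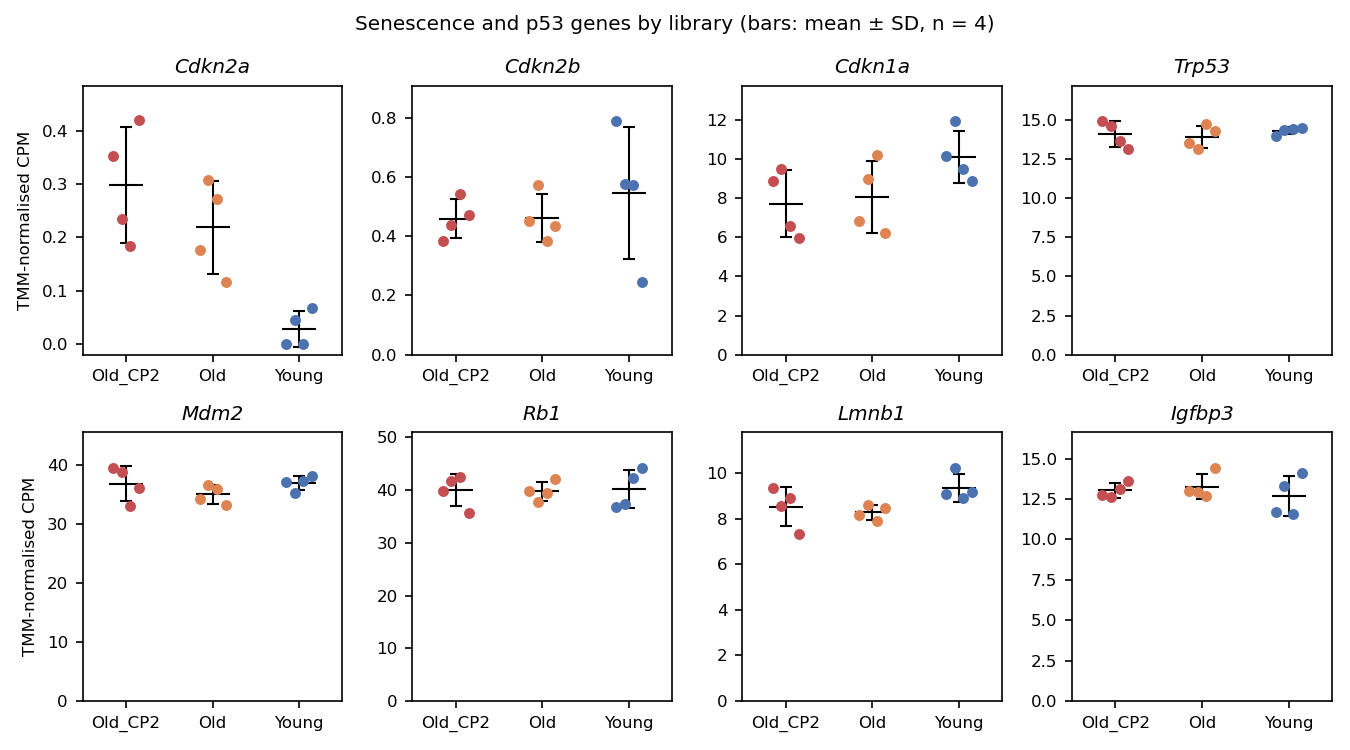
TMM-normalised CPM of each of the 8 genes in every library, with 1 panel per gene and Old_CP2, Old and Young from left to right. Points are libraries and black bars are means ± SD of 4. The Young libraries of Cdkn2a sit at 0 to 0.067 CPM, under all 8 old ones, while the groups of the other panels overlap except for Lmnb1 in Old, where the 4 values lie under the Young ones.

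The comparison of Old_CP2 with Old asks what chronic complex I inhibition did to these genes at 23 months. None of the 8 genes passed edgeR's quasi-likelihood test, where 0.0443% of all tested genes did, 0.0266% higher and 0.0177% lower. The smallest unadjusted p among the 8 was that of Mdm2, at 0.228. Neither DESeq2 nor limma voom called any of them. Cdkn2a had 34, 23, 17 and 34 reads in Old_CP2 11, 12, 13 and 15, against 16, 21, 22 and 11 reads in Old 7, 8, 9 and 10. Old_CP2 11 and Old_CP2 15 lay above the Old libraries, while Old_CP2 12 and Old_CP2 13 lay among them. Mean levels were 0.298 ± 0.109 CPM in Old_CP2 and 0.219 ± 0.0879 CPM in Old (log2 fold change 0.46 ± 0.517, 95% interval -0.66 to 1.57, adjusted p = 0.906). The interval is wide enough to hold a rise of more than 2-fold as well as a fall. From the summed 108 reads in Old_CP2 and 70 reads in Old, the ratio per depth was 1.40, with a 95% counting interval of 1.03 to 1.92. That counting interval lies above 1, but it leaves out the spread between libraries.

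For the other 7 genes the intervals were tighter. Cdkn1a was at 8.90, 9.51, 6.56 and 5.96 CPM in Old_CP2 11, 12, 13 and 15, against 6.87, 9.00, 10.2 and 6.23 CPM in Old 7, 8, 9 and 10. In both groups 2 libraries lay above 8 CPM and 2 below 7 CPM, and the log2 fold change was -0.06 ± 0.178 (95% interval -0.45 to 0.33, adjusted p = 0.967). Cdkn2b averaged 0.459 ± 0.0657 CPM in Old_CP2 and 0.462 ± 0.0800 CPM in Old, with an interval of -0.64 to 0.63. Trp53 averaged 14.1 ± 0.828 CPM in Old_CP2 and 13.9 ± 0.716 CPM in Old, with an interval of -0.11 to 0.15. Mdm2 averaged 36.8 ± 2.95 CPM in Old_CP2 and 35.0 ± 1.58 CPM in Old, with an interval of -0.05 to 0.20 on the same log2 scale. Rb1 spanned 35.7 to 42.5 CPM in Old_CP2 and 37.7 to 42.1 CPM in Old, with an interval of -0.15 to 0.16. For Lmnb1 the libraries of Old_CP2 spread over 7.34 to 9.34 CPM, against 7.89 to 8.60 CPM in Old, with an interval of -0.14 to 0.22 for the log2 fold change. Igfbp3 spanned 12.6 to 13.6 CPM in Old_CP2 and 12.7 to 14.5 CPM in Old, with an interval of -0.19 to 0.13.

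Set against Young, which also serves as the control for Old, the treated old mice again had Cdkn2a as the 1 called gene of 8, where 7.57% of tested genes were called, 4.63% higher and 2.94% lower. Cdkn2a averaged 0.298 ± 0.109 CPM in Old_CP2 and 0.0278 ± 0.0334 CPM in Young (log2 fold change 3.28 ± 0.659, 95% interval 1.86 to 4.70, adjusted p = 0.0104). All 4 Old_CP2 libraries exceeded all 4 Young libraries, as in 8.42% of tested genes. The ratio of 108 reads in Old_CP2 to 10 reads in Young was 9.87 per depth (95% counting interval 5.17 to 21.2). Again the counting interval leaves out the spread between libraries. Here too Cdkn2a entered the test with 0 of 4 Young libraries above the minimum, and a gene that enters so is bound to look higher. The call held with each of the 8 libraries left out in turn and ended with the choroid plexus covariate (log2 fold change 2.80, adjusted p = 0.0911). Cdkn1a averaged 7.73 ± 1.74 CPM in Old_CP2 and 10.1 ± 1.34 CPM in Young, with an interval from -0.77 to just under 0 (log2 fold change -0.39 ± 0.178, unadjusted p = 0.0488, adjusted p = 0.213). The remaining 6 genes had log2 fold changes between -0.25 (Cdkn2b) and 0.04 (Igfbp3), all with an adjusted p of at least 0.370.

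**Figure D3:**
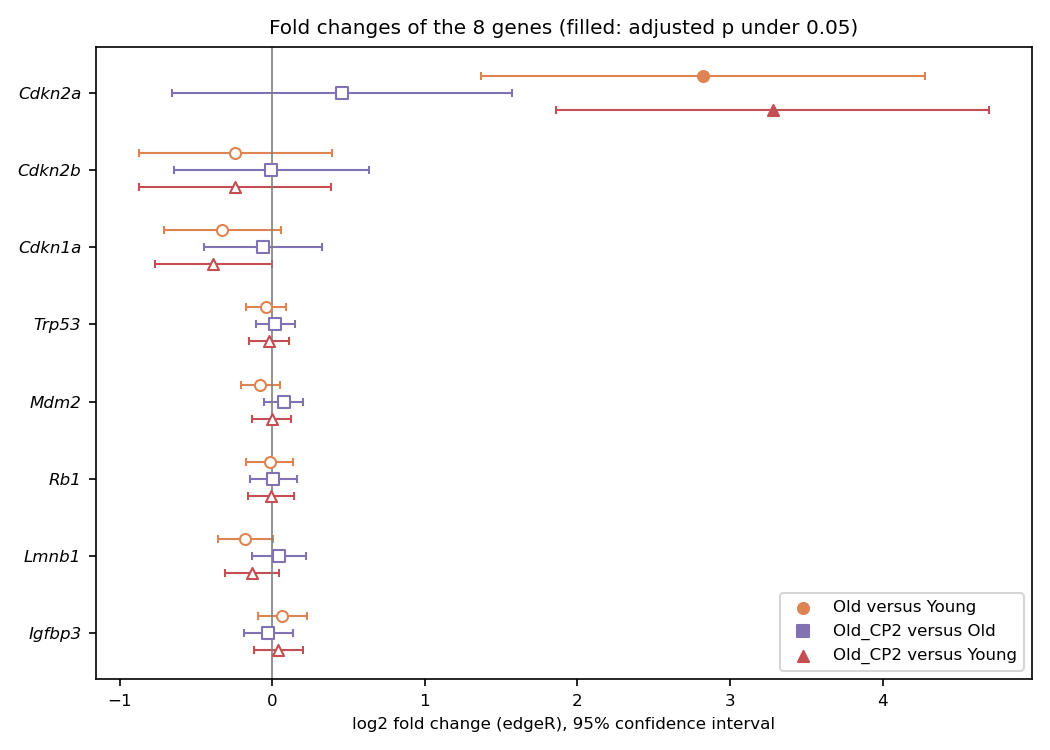
Log2 fold change from edgeR of the 8 genes, 1 row per gene, for Old against Young (circles), Old_CP2 against Old (squares) and Old_CP2 against Young (triangles), with 95% confidence intervals; filled symbols passed an adjusted p of 0.05. The filled symbols are Cdkn2a at 2.82 and 3.28, and the intervals of the other 7 genes touch or cross 0 except Cdkn1a in Old_CP2 against Young.

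Further genes of the pathways were taken from 8 lists, whose counts in Old against Young stand beside 3.96% higher and 2.74% lower among all tested genes. Among 5 other kinase inhibitors, 1 rose in Old against Young and 0 fell, with a median log2 fold change of -0.13, against -0.00 over all tested genes. Cdkn1b, which encodes p27, was at 47.7 ± 2.76 CPM in Old and 41.3 ± 1.91 CPM in Young (0.21 on the log2 scale, adjusted p = 0.0408). Of 16 kinases, ligases and relatives acting on p53, 0 passed in edgeR. At an unadjusted p under 0.05 stood 4 of them, as did 21.4% of all tested genes. DESeq2 called 2 of the 16 lower, beside 2487 of 22237 genes in either direction, and limma voom called 0. The p53 ligase gene Cop1 was at 40.7 ± 1.22 CPM in Old and 44.7 ± 1.56 CPM in Young (adjusted p = 0.0804), and the p53 relative Trp73 at 2.19 ± 0.521 CPM in Old and 3.91 ± 0.671 CPM in Young (adjusted p = 0.0851). Trp73 was at 2.78 and 2.47 CPM in Old 8 and Old 10, where choroid plexus markers summed to 982 and 807 CPM. In Old 7 and Old 9, where they summed to 173 and 32.4 CPM, Trp73 was at 1.74 and 1.76 CPM. The part of these markers in the Trp73 value was not tested. Of 32 p53 target genes, 3 rose and 1 fell, with a median of 0.04. Psrc1, a spindle-associated protein gene, rose to 8.73 ± 0.551 CPM in Old, against 6.29 ± 0.573 CPM in Young (0.47, adjusted p = 0.00930). Apaf1, the core of the apoptosome, rose by 0.32 and the stress-response gene Trp53inp1 by 0.22 on the log2 scale (adjusted p = 0.0440 and 0.0474). Zmat3, an RNA-binding target of p53, fell to 102 ± 0.983 CPM in Old, against 116 ± 7.36 CPM in Young (adjusted p = 0.0385). When single libraries were left out, the call of Psrc1 held in all 8 repeats. That of Cdkn1b held only without Young 5 or Old 9, that of Apaf1 only without Old 8, that of Trp53inp1 only without Old 10 and that of Zmat3 only without Young 1, with adjusted p up to 0.101, 0.102, 0.112 and 0.121.

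Around Rb1, 1 of 21 genes of the RB and E2F list rose and 3 fell (median -0.02). Rbl2, the RB relative p130, was at 59.6 ± 4.20 CPM in Old and 45.8 ± 2.59 CPM in Young (0.38, adjusted p = 0.00427). On the other strand Aktip shares 9.17% and Gm45464 11.8% of the Rbl2 exon bases. E2f1, the activating factor that RB binds, fell to 8.90 ± 1.14 CPM in Old, against 12.6 ± 0.792 CPM in Young (adjusted p = 0.0113), and the calls of Rbl2 and E2f1 held in all 8 repeats with a library left out. E2f7, a repressing family member, fell by 1.33 on the log2 scale to 0.209 ± 0.0678 CPM in Old, against 0.526 ± 0.0771 CPM in Young (adjusted p = 0.0210). The call of E2f7 ended without Young 3, Young 4, Old 7 or Old 9 (up to 0.0562), and that of the E2F partner Tfdp1 (adjusted p = 0.0477) ended without any one of the 8 libraries. Of 22 genes of DNA replication and mitosis, 0 rose and 5 fell, with a median of -0.28. Ccnb1, the mitotic cyclin B1, was at 0.118 ± 0.0448 CPM in Old and 0.601 ± 0.130 CPM in Young (-2.36, adjusted p = 0.00349). Top2a, which untangles replicated DNA, fell by 1.58 and the proliferation marker Mki67 by 0.97 on the log2 scale (adjusted p = 0.00336 and 0.00173), and all 3 calls held in every repeat. Cdk1, the mitotic kinase, fell by 1.48 (adjusted p = 0.0210), and its call ended without Young 4, Young 5, Old 8 or Old 9. The number of list genes that fell was 3 to 6 over the repeats. Summed markers of newborn neurons, a type born from dividing cells, were 424 to 488 CPM in Old and 485 to 543 CPM in Young. Of these 8 markers, 3 had a positive log2 fold change, and the list median was -0.28. Their part in the values of the replication and mitosis genes was not tested.

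Among 14 other genes of the nuclear lamina, 0 rose and 1 fell (median 0.04). Banf1, which tethers DNA to the nuclear envelope, was at 23.2 ± 1.19 CPM in Old and 26.8 ± 1.26 CPM in Young (adjusted p = 0.0425). Its call held only without Young 3, and Eif1ad on the other strand shares 28.6% of its exon bases. Of 11 tested genes out of 13 of the IGF system, 1 rose and 2 fell (median -0.11). Igfbp5 rose to 223 ± 8.25 CPM in Old, against 172 ± 19.7 CPM in Young (0.37, adjusted p = 0.0124). Igfbp7, abundant in vessels, fell to 11.7 ± 0.679 CPM in Old, against 17.2 ± 0.620 CPM in Young (adjusted p = 0.00695). Polr2b on the other strand shares 7.03% of its exon bases, and pericyte and smooth muscle markers summed to 132 to 159 CPM in Old and 155 to 190 CPM in Young, whose part in this value was not tested. Igfbp2 fell to 39.8 ± 8.15 CPM in Old, against 60.6 ± 8.86 CPM in Young (adjusted p = 0.0309), a call that ended without Young 4, Young 5, Old 7, Old 9 or Old 10. Igfbp2 is expressed strongly in choroid plexus, whose summed markers were at 32.4 to 982 CPM in Old and 1238 to 1989 CPM in Young, and their part in this value was not tested.

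Of 26 tested genes out of 34 secreted factors linked to senescence, 4 rose in Old against Young and 0 fell, with a median of 0.23. Csf1, the growth factor of microglia, was at 24.9 ± 0.638 CPM in Old and 20.3 ± 0.412 CPM in Young (0.30, adjusted p = 0.00319). The chemokine gene Ccl4 was at 0.245 ± 0.0689 CPM in Old and 0.0432 ± 0.0263 CPM in Young (2.5, adjusted p = 0.00855). Spp1, which encodes osteopontin, was at 27.8 ± 24.8 CPM in Old and 2.94 ± 0.644 CPM in Young (3.24, adjusted p = 0.0111). The Old libraries of Spp1 spread over 8.90 to 64.3 CPM, all above the Young range of 2.43 to 3.82 CPM. Mmp12, macrophage elastase, rose by 3.88 on the log2 scale (adjusted p = 0.0250) with overlapping groups, and its call ended without Young 3, Young 4, Young 5 or Old 7. Young libraries held at most 0.0767 CPM of Ccl4 and 0.0388 CPM of Mmp12, under the filter minimum of 0.112 CPM. Both genes thus entered the test through the old groups alone and are bound to look higher there. The classical secreted factors Il6, Tnf, Cxcl1, Cxcl2, Csf2, Ccl8, Mmp3 and Mmp13 were too low to be tested. Csf1 acts on microglia and Ccl4 and Spp1 are made by them. Summed microglial markers were also higher in every Old library than in any Young one, and their part in these values was not tested. Spp1 was highest in Old 7, which also had the highest hindbrain and midbrain marker sum, at 96.6 CPM against 21.5 to 31.1 CPM in the other Old libraries. The part of these markers in the Spp1 value was not tested either.

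In Old_CP2 against Old, 0 genes of the 8 lists passed edgeR's test. At an unadjusted p under 0.05 stood 6.31% of all tested genes. So did 1 of 5 other kinase inhibitors, 1 of 16 p53 regulators, 3 of 32 p53 targets and 1 of 21 RB and E2F genes. The same held for 1 of 22 replication and mitosis genes, 1 of 14 lamina genes, 1 of 11 IGF genes and 3 of 26 secreted factors. Limma voom called 0 genes of the 8 lists, and DESeq2 called Hipk2 and Mmp14 lower (DESeq2 adjusted p = 0.0196 and 0.00748). Over all genes in this comparison DESeq2 called 96 of 28056, against 10 of 22553 in edgeR. List medians lay between -0.08 and 0.11, against 0.00 over all tested genes. Genes among the 2 of smallest p in their own list follow as values. Mmp14, a membrane metalloproteinase, was at 10.6 ± 0.567 CPM in Old_CP2 and 14.4 ± 1.08 CPM in Old (log2 fold change -0.43, adjusted p = 0.193), and the p53 kinase gene Hipk2 at 120 ± 5.65 CPM in Old_CP2 and 140 ± 3.72 CPM in Old (-0.23, adjusted p = 0.212). In both genes the groups did not overlap, as in 3.44% of tested genes. Rrm2b, the p53-induced subunit of ribonucleotide reductase, was at 45.5 ± 1.53 CPM in Old_CP2 and 39.7 ± 1.91 CPM in Old (0.20, adjusted p = 0.402). Plk3, a stress-response kinase gene, spanned 10.3 to 12.2 CPM in Old_CP2 and 8.35 to 10.9 CPM in Old (0.28, adjusted p = 0.634), and the chemokine gene Ccl5 at 0.909 ± 1.20 CPM in Old_CP2 and 0.219 ± 0.127 CPM in Old (adjusted p = 0.718), with 2.70 CPM in Old_CP2 15. The E2f1 value was 10.6 ± 1.00 CPM in Old_CP2 and 8.90 ± 1.14 CPM in Old (adjusted p = 0.730), and that of Igfbp7 14.5 ± 2.42 CPM in Old_CP2 and 11.7 ± 0.679 CPM in Old (adjusted p = 0.559). Pericyte and smooth muscle markers summed to 169 to 242 CPM in Old_CP2 and 132 to 159 CPM in Old, and their part in the Igfbp7 value was not tested.

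**Figure D4:**
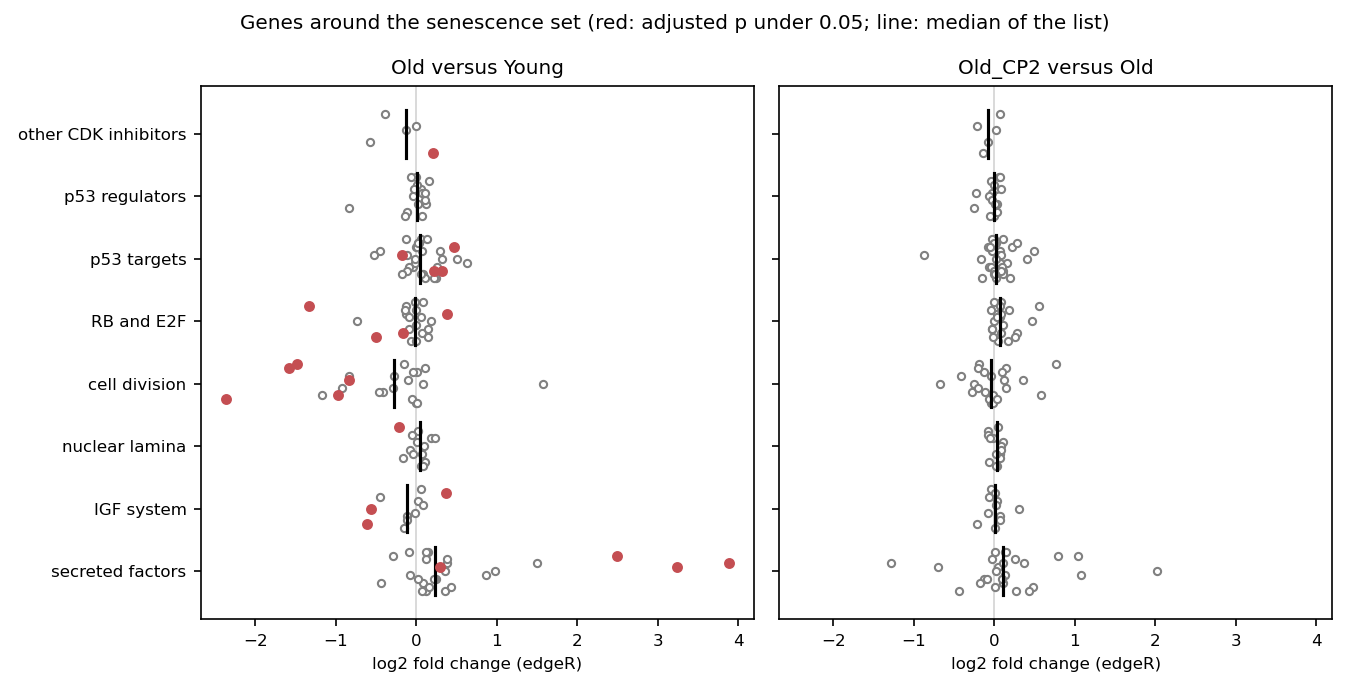
Log2 fold change of every tested gene of the 8 lists around the senescence set, for Old against Young on the left and Old_CP2 against Old on the right. Each point is a gene, red points passed an adjusted p of 0.05 and black lines are list medians. Red points occur in the left panel, down to -2.36 for Ccnb1 and up to 3.88 for Mmp12, and in no list of the right panel.

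In Old_CP2 against Young, where 4.63% of all tested genes were called higher and 2.94% lower, 4 of 32 p53 targets rose and 0 fell, and 2 rose without Old_CP2 11. They were Rrm2b (log2 fold change 0.31, adjusted p = 0.00485), Apaf1 (0.43, 0.0103), Psrc1 (0.42, 0.0141) and Trp53inp1 (0.22, 0.0442). Of the p53 regulators, Cop1 fell by 0.18 and Trp73 by 1.09 on the log2 scale (adjusted p = 0.0228 and 0.0293). Choroid plexus markers summed to 28.3 to 842 CPM in Old_CP2 and 1238 to 1989 CPM in Young, and their part in the Trp73 value was not tested. Rbl2 was the 1 called gene of the RB and E2F list (0.46, adjusted p = 0.00119), and 5 genes of replication and mitosis fell, among them Mki67, Top2a, Ccnb1 and Cenpa, with 3 lower without Young 1, Young 3, Young 4, Old_CP2 11, Old_CP2 12 or Old_CP2 13. Sun2, of the inner nuclear membrane, rose by 0.18 (adjusted p = 0.0190), Igfbp5 rose by 0.38 and Igfbp2 fell by 0.82 (adjusted p = 0.00985 and 0.00669). Among the secreted factors 6 rose and 1 fell, with 2 to 6 higher and 0 to 1 lower when single libraries were left out, and Csf1 (0.35), Ccl4 (3.29), Ccl3 (1.88) and Spp1 (2.54) had the smallest p of these 7, with adjusted p of 0.00109 to 0.0281. No Young library of Ccl4 was above the filter minimum of 0.112 CPM, so here too Ccl4 is bound to look higher. Of the other kinase inhibitors 0 passed, with 2 of 5 at an unadjusted p under 0.05, as were 23.2% of all tested genes, and 0 calls by DESeq2 or limma voom. These were Cdkn2d (-0.11, adjusted p = 0.160) and Cdkn3 (-0.65, adjusted p = 0.204). Without Old_CP2 11 the call of Psrc1 ended, without any one of the 8 libraries that of Trp53inp1, without Young 4, Old_CP2 11, Old_CP2 12 or Old_CP2 15 that of Cop1 and without Young 1, Young 3, Young 4, Old_CP2 12 or Old_CP2 15 that of Trp73. The secreted factors that rose numbered 3 without Young 1 or Old_CP2 15 and 2 without Young 3 or Young 5, and the 1 that fell lost its call without Young 3, Young 4, Young 5, Old_CP2 11, Old_CP2 12 or Old_CP2 13. Ccl3 lost its call without Young 3, Young 4, Young 5, Old_CP2 12 or Old_CP2 13, Spp1 without any 1 Young library or Old_CP2 15, and Cenpa (adjusted p = 0.0395) held only without Young 5. Calls of Rrm2b, Apaf1, Rbl2, Mki67, Top2a, Ccnb1, Sun2, Igfbp5, Igfbp2, Csf1 and Ccl4 held in all 8 repeats.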

How the data were processed

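Per the labels' protocols, total RNA from frozen brain cross-sections was made into libraries with TruSeq RNA v2, which does not mark the strand. Per the submitters' processing notes, bcl2fastq, TopHat and featureCounts (Subread) were run on mm10, with versions not given in the sources used here. Gene by gene, the deposited table holds gene counts and RPKM values that, per the file headers, were made by the authors. Counts per library came to 79.9 to 85.4% of the total behind the RPKM values. Positions come from the deposited table, and 42462 of its gene IDs occur in GENCODE vM21. No 2 libraries of a group were copies of each other, since the lowest chi-square per gene was 14.7.

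Counts were fitted in edgeR 4.0.16 (R 4.3.3) with filterByExpr (count minimum 10, 0.112 CPM in at least 4 libraries), TMM and a quasi-likelihood fit of all 12 libraries by group. Tests were two-sided with Benjamini-Hochberg adjustment over 22553 genes, and adjusted p under 0.05 made a call. CPM is TMM-normalised, and levels are compared between genes by RPKM. The test was tried on simulated counts first. Alternatives were DESeq2 1.42.0, limma voom 3.58.1, other scaling, no filter, smaller fits, single libraries left out and a choroid plexus covariate. The 8 genes and all lists were chosen with earlier results of these data known. From each list, up to 4 called genes of smallest p were named, or up to 2 where 0 were called, as well as neighbours of the 8 genes within 20 kb. No gene of similar pattern was sought for Cdkn2a, whose mean was under 1 CPM. Counting intervals cover counting error only.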

Additional observations from a re-analysis of the deposited data

Results flagged for a closer look

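In a group of 4 libraries, a value was marked when its gap to the nearest other exceeded Dixon's 95% critical share of the group's range. This happened for 4 of 135 values of a gene in a group, and chance alone marks about 1 in 20. None of the 8 senescence and p53 genes was among them. Spp1 reached 39.8 CPM in Old_CP2 15, against 7.69 to 11.6 CPM in the other Old_CP2 libraries. That library also had the highest hindbrain and midbrain marker sum of its group, 75.0 CPM against 14.5 to 29.9 CPM. The part of these markers in the Spp1 value was not tested. Ccl5, a T cell chemokine, reached 2.70 CPM in Old_CP2 15, against 0.153 to 0.5 CPM in the others. Ccl5 was also high in Old 7, at 0.409 CPM against 0.136 to 0.170 CPM. Cdkn2d, which encodes p19INK4d, was at 39.0 CPM in Old 9, against 35.7 to 36.2 CPM in the other Old libraries.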

How the results depend on the processing

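For the 8 genes, 329 of 335 values under alternatives kept their side of the threshold, 6 lost the call and 0 reversed a call. All 6 concern Cdkn2a. In Old against Young its log2 fold change was 2.44 (adjusted p = 0.126) with the choroid plexus covariate, and 2.46 to 3.65 over the other alternatives, with 4 of the 8 repeats that leave out 1 library ending the call. In the fit of only the 8 libraries compared it did not pass the filter, so 0 of the 7 left to test were called. With the covariate 0 of the 8 genes were called. In Old_CP2 against Young it was 2.80 with the covariate, where 0 of the 8 genes were called. The number of the 8 called was 0 to 1 with a library left out in Old against Young. The cause was not tested. Called genes overall numbered 2487 with DESeq2 and 855 to 1258 with a library left out, against 1511 for Old against Young. For Old_CP2 against Old they numbered 96 with DESeq2, 17 without a filter and 6 (without Old 9) to 38 (without Old_CP2 15), against 10. For Old_CP2 against Young they numbered 2614 with DESeq2 and 827 to 1590 with a library left out, against 1707. Counts per list were repeated in the same way, a choice made after seeing the data. In Old against Young, limma voom called 1 p53 target higher in place of 3 and DESeq2 2 RB and E2F genes higher in place of 1. In Old_CP2 against Young, limma voom called 4 and DESeq2 9 secreted factors higher, against 6. Of 21 named calls in Old against Young, 11 held with every library left out, and of 19 in Old_CP2 against Young, 11 held. Another test, filter, scaling or fit ended 7 and 5 of these calls. In Old against Young they were Cdkn1b, Zmat3, Apaf1, Trp53inp1, Tfdp1, Banf1 and Mmp12 (limma voom adjusted p = 0.136 for Mmp12), and in Old_CP2 against Young Cop1, Trp53inp1, Cenpa, Ccl5 and Spp1 (limma voom adjusted p = 0.124 for Spp1). No paired analysis was possible because the groups share no replicate numbers. Depth limits Cdkn2a, at 0 to 34 reads per library.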
